A study of Homo sapiens with 6 samples.

Results

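The transcripts described here are 9 long noncoding RNAs (lncRNAs) that reside in the nucleus or have been linked to neuroblastoma: MALAT1, NEAT1, NORAD, PVT1, OIP5-AS1, KCNQ1OT1, CASC15, NBAT1 and MIAT. They were taken as a list of names, not by their values, and all 9 were found among the 58735 genes of the study, of which 16054 carry an lncRNA class in GENCODE release 29. RNA-seq was performed on 6 libraries of SK-N-AS, an established human neuroblastoma cell line, to ask how loss of the splicing factor Prp19 changes the transcriptome. Of these, 3 libraries came from cells transfected with small interfering RNA (siRNA) against Prp19 (siPrp19) and 3 from cells that received a negative control siRNA (NC). The labels put the transfection at 72 h, and the study's methods name a shorter interval. The study designed more than 1 siRNA sequence against Prp19 and took the first forward, so an effect of that sequence and an effect of Prp19 loss cannot be told apart. Both groups were transfected, and no untransfected cells are among the samples.

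LncRNAs act as RNA. MALAT1 collects in nuclear speckles, the stores of splicing factors. NEAT1 is the scaffold of paraspeckles, nuclear bodies built from NEAT1 and RNA-binding proteins. NORAD and OIP5-AS1 (also called Cyrano) are found largely in the cytoplasm, where NORAD binds the Pumilio proteins and OIP5-AS1 pairs with the microRNA miR-7, so the word nuclear does not cover every name on the list. PVT1 and KCNQ1OT1 are known for their loci: PVT1 lies beside MYC, and KCNQ1OT1 is an imprinted antisense RNA within KCNQ1. CASC15 and NBAT1 lie at a neuroblastoma susceptibility locus, and MIAT is a nuclear RNA that binds splicing regulators. Prp19, the product of PRPF19, is a ubiquitin ligase that is needed for the catalytic activation of the spliceosome.

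The sequence elements behind these roles are shown for the 4 most abundant lncRNAs of the list. They are background, and no comparison of levels below uses them. The longest transcripts of MALAT1 and NEAT1 share a pair of stretches near their 3′ ends, drawn in capitals, which belong to the elements known to form a triple helix that protects a 3′ end without a poly(A) tail. In NEAT1 the second stretch ends the transcript, whereas the annotated MALAT1 transcript runs on for 353 bases. The MALAT1 stretch lies at chr11:65506065-65506116 and that of NEAT1 at chr11:65445484-65445540, both on the plus strand of GRCh38. The longer shared stretch has 16 bases and occurs within the last 500 bases of 2 of 16054 longest lncRNA transcripts, and the shorter has 11 bases and occurs in 20 of them.
MALAT1: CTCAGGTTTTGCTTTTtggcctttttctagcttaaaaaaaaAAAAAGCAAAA
NEAT1: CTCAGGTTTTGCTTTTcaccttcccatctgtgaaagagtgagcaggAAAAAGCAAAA

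OIP5-AS1 holds the site for which it is best known, at chr15:41300574-41300599 on the plus strand. It is printed beneath the mature microRNA, whose sequence is that of RefSeq, with the microRNA seed (bases 2 to 8) in capitals. In the site, capitals mark the seed match GTCTTCC and a stretch of 14 bases that can pair with the remainder of the microRNA.
hsa-miR-7-5p: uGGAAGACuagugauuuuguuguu
OIP5-AS1 site: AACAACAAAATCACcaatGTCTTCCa

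The seed match occurred 3 times in the 8829 bases of the longest OIP5-AS1 transcript, and only this match had such a stretch beside it. The seed match alone was common, since 58.5% of 53 lncRNA transcripts at least as long held it within their first 8829 bases. A stretch of 14 bases beside a seed match was found in 1 of 16054 longest lncRNA transcripts, that of OIP5-AS1 itself. NORAD holds the Pumilio recognition element, searched as TGTANATA on the transcript strand, 15 times in 5339 bases. Of 230 lncRNA transcripts at least as long, 37.8% held it within the same length and 3 held it 15 times or more, counting NORAD itself. The form TGTATATA made up 10 of the matches, and 3 pairs of matches began 9 bases apart. An isolated match and such a pair are shown, with the element in capitals. They lie on the minus strand at chr20:36050193-36050200, chr20:36049512-36049519 and chr20:36049503-36049510.
NORAD match 1: aaggcctgTGTATATAatatgaaa
NORAD match 4: cttatctgTGTATATAgtgtacat
NORAD match 5: gtatatagTGTACATAaaggacag

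Before any comparison, the labels of the libraries were set against the files. Each file holds 1 value column with a name of its own (NCa, NCb, NCc, siPrp19a, siPrp19b or siPrp19c). The column NCb sits in a file recorded under the siPrp19 sample of replicate 1, and the column siPrp19b in a file recorded under the NC sample of replicate 3. NCc and siPrp19a sit in files recorded under replicate 2 of their own group, so the replicate numbers are in doubt as well. The comparison below follows the column names. The log2 differences of the 5 lncRNAs tested across genes are also given for the 4 libraries without NCb and siPrp19b and for the groups as recorded. With the groups as recorded no gene was called by limma, so none of the calls below holds there. PRPF19, the target, was measured at 83.0, 83.1 and 93.0 FPKM (fragments per kilobase of exon, scaled by depth, as deposited) in NCa, NCb and NCc. It was at 19.6, 19.1 and 18.5 FPKM in siPrp19a, siPrp19b and siPrp19c, so it was 77.9% lower in the columns named siPrp19 (limma, adjusted p = 0.000215). The groups as recorded put siPrp19b, at 19.1 FPKM, with NC and NCb, at 83.1 FPKM, with siPrp19. Each recorded group thus mixes columns with high and low PRPF19, and the log2 fold change of PRPF19 was -0.74 there (limma, adjusted p = 1.00).

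The reads recovered from the FPKM values numbered 14887132 to 19977811 per library, and lncRNA genes took 1.20% to 1.36% of them. Mitochondrial genes took 8.29% of the reads in siPrp19a and 5.15% to 5.49% in the 5 other libraries. A pair of libraries in each group was much closer than the rest: a chi-square test of recovered reads gave 1.67 per degree of freedom between NCa and NCb and 2.45 between siPrp19b and siPrp19c, against 16.05 to 41.3 for the 13 other pairs. No pair fell within sampling noise, and all 6 were kept as separate samples. These values cannot tell technical repeats from separate cultures, so the close libraries may not be independent. Leaving out NCb and siPrp19b also removes a library of each close pair. The adrenergic neuroblastoma marker HAND2 (117 to 170 FPKM) and the mesenchymal marker VIM (99.4 to 162 FPKM) were present, whereas TH stayed at or below 0.662 FPKM and the mesenchymal marker NOTCH2 at or below 0.173 FPKM. Of the markers of other cell types, CDH5 and CD3E were listed at 0, CDH1 stayed at or below 0.0204 FPKM, and CD68 at or below 0.0929 FPKM. The endothelial gene PECAM1 was at 0.562 to 0.982 FPKM and the epithelial gene EPCAM at 0.0462 to 0.176 FPKM. The leukocyte gene PTPRC was at 16.9 to 30.7 FPKM and KRT18 at 37.6 to 51.6 FPKM. The summed level of the 3 leukocyte markers, nearly all of it PTPRC, was 25.01 to 30.8 FPKM in NC and 16.9 to 20.5 FPKM in siPrp19. PTPRC was itself called lower (log2 difference -0.63; limma, adjusted p = 0.0202), but not without NCb and siPrp19b (limma, adjusted p = 0.272). The part of this level in any result was not tested.

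The 9 lncRNAs spanned a wide range of levels per length. NORAD was the highest, at 55.7 to 70.7 FPKM over the 6 libraries, and ranked 2nd of the 16054 lncRNA genes. MALAT1 followed at 29.3 to 39.7 FPKM, NEAT1 at 14.0 to 21.1 FPKM, OIP5-AS1 at 8.64 to 12.8 FPKM and PVT1 at 2.14 to 2.68 FPKM. The ranges of neighbours in this order did not overlap from NORAD down to CASC15. Below 1 FPKM lay CASC15 (0.296 to 0.480 FPKM), MIAT (0.321 to 0.422 FPKM), KCNQ1OT1 (0.179 to 0.388 FPKM) and NBAT1 (0.0977 to 0.210 FPKM), whose neighbouring ranges overlapped. Together the 9 took 0.113% to 0.141% of all reads. The variation over the 6 libraries was largest for NBAT1 and KCNQ1OT1, with coefficients of variation of 30.6% and 24.8%, and smallest for PVT1, with 7.43%. NBAT1 rested on 3 to 6 reads per library, so its variation is largely that of counting. How RNA was enriched is not given in the sources used here, which matters for levels, because MALAT1 and the long form of NEAT1 lack a poly(A) tail. The short noncoding RNAs RN7SK, RPPH1 and RMRP were listed at 0 in every library.

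**Figure D1:**
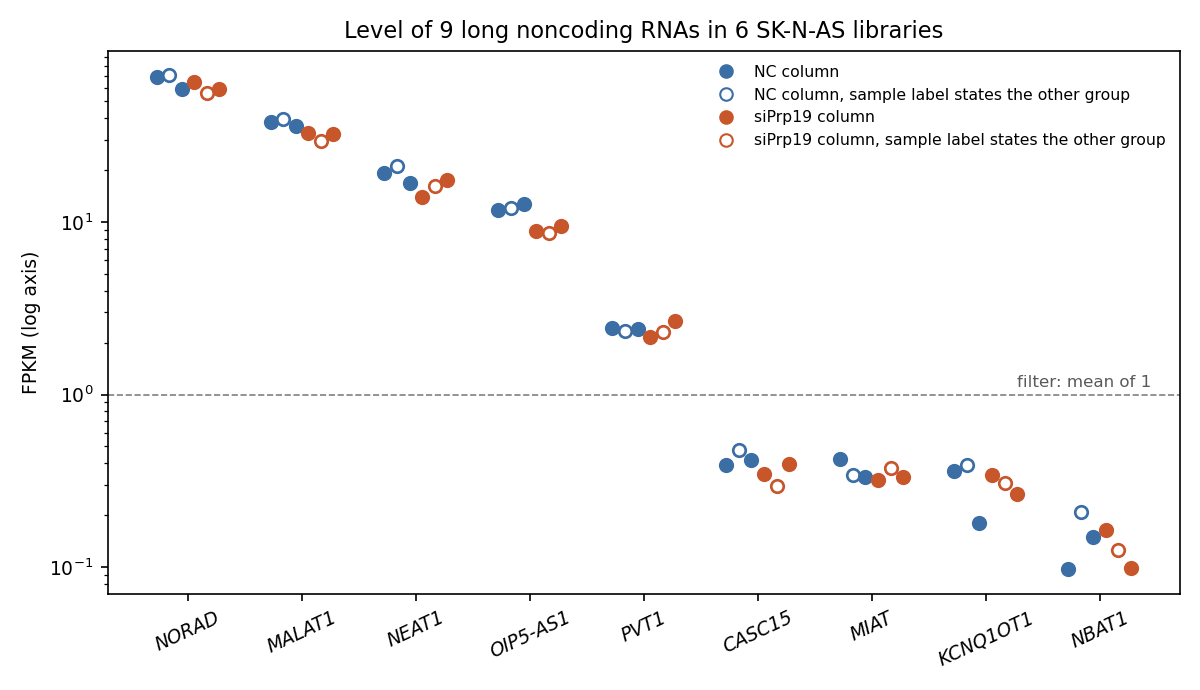
FPKM of the 9 lncRNAs on a log axis, with 1 point for each of the 6 libraries (NCa, NCb, NCc, siPrp19a, siPrp19b and siPrp19c from left to right) and open points for the columns whose sample label states the other group. NORAD, MALAT1, NEAT1, OIP5-AS1 and PVT1 lie above the filter at a mean of 1 FPKM (dashed line), and the points of NC and siPrp19 separate for MALAT1 and OIP5-AS1.

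Of the 9 lncRNAs, OIP5-AS1 fell upon Prp19 knockdown by the column names, and no other passed the threshold. The lncRNAs above the filter (a mean of at least 1 FPKM) numbered 5, and 4 lay below it and were not tested across genes. Thus 1 of the 5 tested was called lower at an adjusted p under 0.05, where 5.37% of all 13718 tested genes were. MALAT1 and OIP5-AS1 were lower in every siPrp19 column than in any NC column, 2 of 5, where 18.1% of all tested genes were. The median log2 fold change was -0.25 for these 5 and -0.02 for all tested genes. Without NCb and siPrp19b, none of the 5 was called by limma, and 1 had an unadjusted p under 0.05. In that fit only 2 genes in all, 0.0146% of those tested, were called, PRPF19 and MEST, both lower. A fit of the recovered reads (voom in limma) with all 6 libraries again called 1 of the 5, where 4.54% of all tested genes were called lower. With the groups as recorded, none of the 5 and none of all genes was called by limma, with 0 and 191 at an unadjusted p under 0.05. In bulk RNA, less of a transcript per cell and fewer cells that express it cannot be told apart.

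The fall of OIP5-AS1 was modest in size. OIP5-AS1 (ENSG00000247556; chromosome 15, 41283990 to 41309737, plus strand) was at 11.7, 12.0 and 12.8 FPKM in NCa, NCb and NCc. It was at 8.88, 8.64 and 9.53 FPKM in siPrp19a, siPrp19b and siPrp19c, from 1777 to 2781 reads per library. The highest siPrp19 column lay below the lowest NC column. The mean was 12.1 ± 0.559 FPKM (SD, n = 3) in NC and 9.02 ± 0.462 FPKM (SD, n = 3) in siPrp19, 25.7% lower. On the log2(FPKM + 1) scale the difference was -0.39 (95% confidence interval -0.55 to -0.23; limma, adjusted p = 0.0200). Without NCb and siPrp19b the difference was -0.37 (95% confidence interval -0.67 to -0.07) and no longer passed (limma, adjusted p = 0.317). With the groups as recorded it was -0.11 (limma, adjusted p = 1.00). Per 1000000 recovered reads it was 150.8 ± 4.79 (SD, n = 3) in NC and 118.2 ± 7.58 (SD, n = 3) in siPrp19, again without overlap. The call held under quantile normalization (limma, adjusted p = 0.0335) and for the recovered reads (voom in limma, adjusted p = 0.0274). Yet it depended on the scaling, since it was lost when FPKM were rescaled to the same sum in each library (-0.35; limma, adjusted p = 0.0564). It was also lost when NCa, NCb, siPrp19b or siPrp19c was left out, with adjusted p of 0.0743, 0.0796, 0.0988 and 0.0661 in limma. The last 470 bases of the gene, 1.83% of its span, overlap OIP5 on the other strand. The protein-coding gene ENSG00000285920 overlaps OIP5-AS1 on the same strand and was listed at 0 in every library. What these overlaps do to the counts was not tested.

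MALAT1 (ENSG00000251562; chromosome 11, 65497688 to 65506516, plus strand) was at 38.2, 39.7 and 36.1 FPKM in NCa, NCb and NCc. In siPrp19a, siPrp19b and siPrp19c it was at 32.9, 29.3 and 32.3 FPKM, from 4274 to 5994 reads per library. The groups did not overlap, and siPrp19b was the lowest. The mean was 38.0 ± 1.84 FPKM (SD, n = 3) in NC and 31.5 ± 1.93 FPKM (SD, n = 3) in siPrp19. The log2 difference of -0.26 (95% confidence interval -0.44 to -0.08) did not pass after adjustment over all genes (limma, adjusted p = 0.0864). It was -0.18 without NCb and siPrp19b (limma, adjusted p = 0.611) and 0.02 with the groups as recorded.

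NEAT1 (ENSG00000245532; chromosome 11, 65422774 to 65445540, plus strand) lies next to MALAT1. It was at 19.3, 21.1 and 16.8 FPKM in NCa, NCb and NCc and at 14.0, 16.1 and 17.6 FPKM in siPrp19a, siPrp19b and siPrp19c. Here the groups overlapped, because siPrp19c lay above NCc. The mean was 19.1 ± 2.17 FPKM (SD, n = 3) in NC and 15.9 ± 1.83 FPKM (SD, n = 3) in siPrp19, and the log2 difference was -0.25 (95% confidence interval -0.52 to 0.02; limma, adjusted p = 0.238). Without NCb and siPrp19b it was -0.19 (95% confidence interval -0.57 to 0.19), and with the groups as recorded it was 0.00. Counts per gene do not separate the short and the long form of NEAT1.

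NORAD (ENSG00000260032; chromosome 20, 36045622 to 36050960, minus strand), the lncRNA with the Pumilio elements shown above, was at 69.5, 70.7 and 58.8 FPKM in NCa, NCb and NCc. In siPrp19a, siPrp19b and siPrp19c it was at 65.2, 55.7 and 58.7 FPKM. NCc lay among the siPrp19 values, and siPrp19a above NCc. The means of 66.3 ± 6.56 FPKM and 59.9 ± 4.84 FPKM (SD, n = 3 each) differed by -0.14 on the log2 scale (95% confidence interval -0.38 to 0.10; limma, adjusted p = 0.448). Without NCb and siPrp19b the difference was -0.05 (95% confidence interval -0.43 to 0.33), and it turned to 0.01 under quantile normalization and to 0.08 with the groups as recorded.

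**Figure D2:**
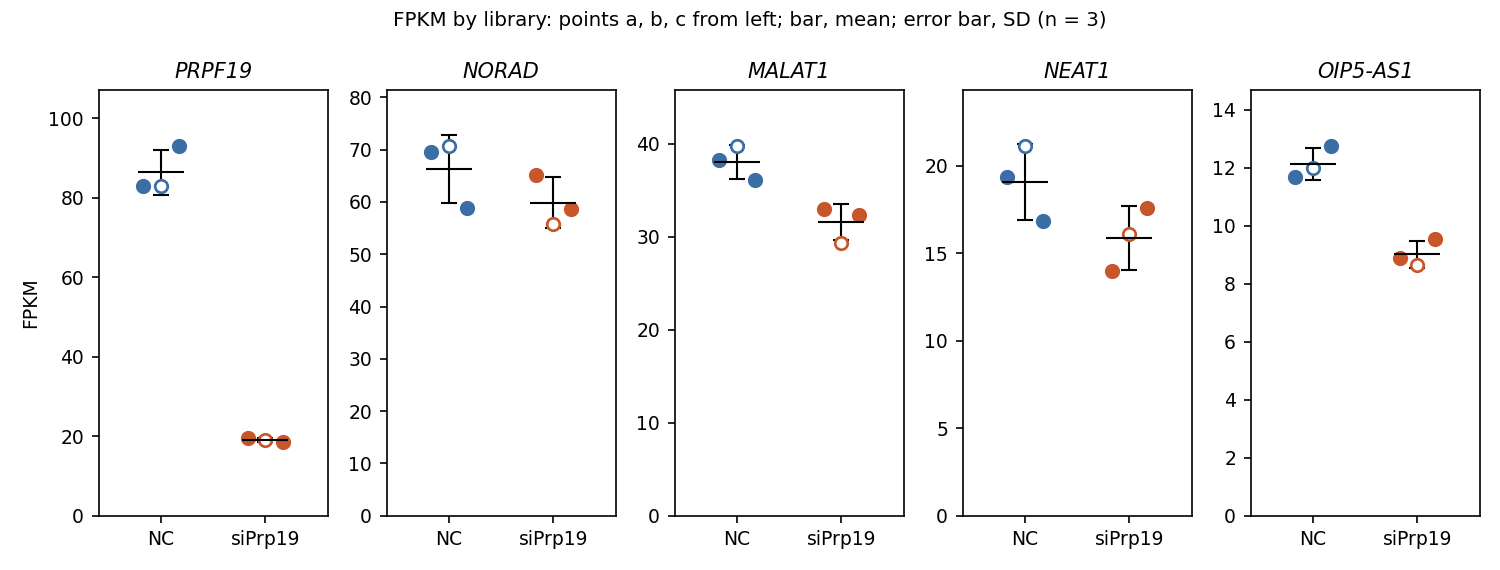
FPKM of PRPF19, NORAD, MALAT1, NEAT1 and OIP5-AS1 in NC and siPrp19 columns (points a, b and c from left to right), with the mean as a bar, the SD as error bar (n = 3) and open points for NCb and siPrp19b. The groups separate for PRPF19, MALAT1 and OIP5-AS1 and overlap for NORAD and NEAT1.

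PVT1 (ENSG00000249859; chromosome 8, 127794533 to 128101253, plus strand) was at 2.43, 2.35 and 2.41 FPKM in NCa, NCb and NCc and at 2.14, 2.29 and 2.68 FPKM in siPrp19a, siPrp19b and siPrp19c. The siPrp19 values lay on both sides of those of NC. The log2 difference was -0.01 (95% confidence interval -0.23 to 0.20; limma, adjusted p = 0.950), and it was 0.07 (95% confidence interval -0.22 to 0.35) for the recovered reads. It was -0.01 without NCb and siPrp19b (95% confidence interval -0.37 to 0.36) and 0.00 with the groups as recorded. KCNQ1OT1 (ENSG00000269821; chromosome 11, 2608328 to 2699994, minus strand) was at 0.359, 0.388 and 0.179 FPKM in NCa, NCb and NCc and at 0.344, 0.306 and 0.263 FPKM in siPrp19a, siPrp19b and siPrp19c. The lowest library was NCc, with 283 reads against 463 to 525 in the others, and the groups overlapped (exact permutation test, two-sided, p = 1.00). All 91667 bases of KCNQ1OT1 lie within KCNQ1 on the other strand, and the counting is not stated to use strand, so reads of the KCNQ1 precursor cannot be told apart from it.

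The lncRNAs of the neuroblastoma locus were scarce. CASC15 (ENSG00000272168; chromosome 6, 21664772 to 22368328, plus strand) was at 0.390, 0.480 and 0.420 FPKM in NCa, NCb and NCc and at 0.348, 0.296 and 0.398 FPKM in siPrp19a, siPrp19b and siPrp19c. Only siPrp19c reached into the NC range, on 65 to 111 reads per library (exact permutation test, two-sided, p = 0.200). NBAT1 (ENSG00000260455; chromosome 6, 22134957 to 22147193, minus strand), which lies within the span of CASC15 on the other strand, had 3, 6 and 5 reads in NCa, NCb and NCc and 5, 4 and 4 in siPrp19a, siPrp19b and siPrp19c. The exact Poisson 95% interval was 0.619 to 8.77 reads for NCa and 2.20 to 13.1 for NCb, so no difference was detectable at this depth and no fold is given. MIAT (ENSG00000225783; chromosome 22, 26646428 to 26676475, plus strand) was at 0.422, 0.344 and 0.334 FPKM in NCa, NCb and NCc. In siPrp19a, siPrp19b and siPrp19c it was at 0.321, 0.374 and 0.334 FPKM, with siPrp19a the lowest of all 6, and the groups overlapped (exact permutation test, two-sided, p = 0.5). With 3 against 3 libraries, the smallest p that the exact permutation test allows is 0.1, and it was used for the 4 lncRNAs below the filter (for NBAT1, p = 0.700). These intervals cover counting error only.

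**Figure D3:**
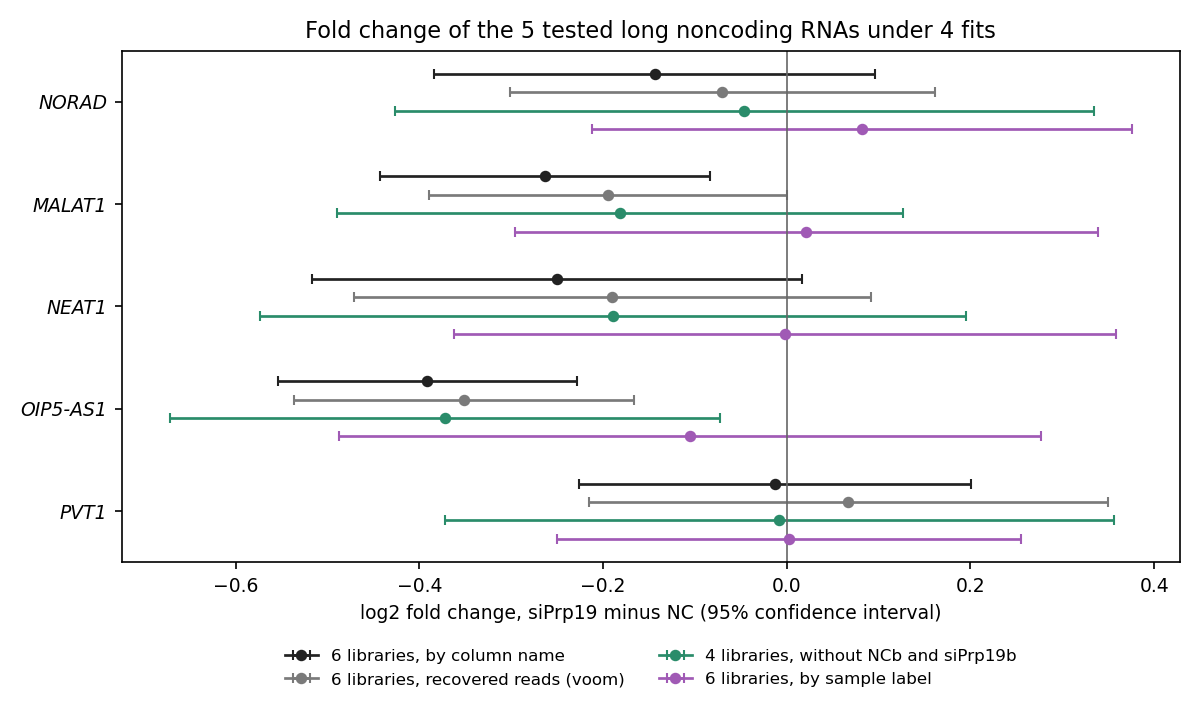
Log2 fold change (siPrp19 minus NC, on log2(FPKM + 1), or on reads for voom) of the 5 tested lncRNAs, with 95% confidence intervals, under 4 fits. OIP5-AS1 lies below 0 by its whole interval in 3 of them, whereas by sample label every interval crosses 0.

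Proteins that work with these lncRNAs were described next by the RNA level of their genes, as lists whose members were chosen by name. A fall or difference given for them is one of that RNA, and no protein was measured in these libraries. Of 20 paraspeckle proteins, all tested, 3 fell and 17 did not pass, with a median log2 fold change of -0.19 against -0.02 for all genes; 7.94% of all genes passed in either direction. NUDT21, a subunit of the cleavage factor that sets poly(A) sites, was at 44.1 ± 2.74 FPKM in NC and 31.6 ± 1.23 in siPrp19 (SD, n = 3 each; limma, adjusted p = 0.0148). RBMX, a nuclear RNA-binding protein, fell by 0.38 on the log2 scale (limma, adjusted p = 0.0240), and HNRNPR fell by 0.27 (limma, adjusted p = 0.0410). The core proteins SFPQ and NONO, without which paraspeckles do not form, differed by -0.19 (limma, adjusted p = 0.200) and -0.06 (limma, adjusted p = 0.642), and HNRNPA1 and HNRNPK by -0.25 and -0.21, also short of the threshold. None of the 3 passed without NCb and siPrp19b. RBMX and NUDT21 passed with the recovered reads, and HNRNPR did not.

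Of 11 nuclear speckle proteins, none passed in limma, with a median of -0.08. SRRM2 and SON, the large proteins of the speckle core, were lowest in NCc (40.1 and 20.9 FPKM) and had differences of 0.01 and 0.05. The splicing factors SRSF2, U2AF2 and THRAP3 had differences of -0.27, -0.23 and -0.17 (limma, adjusted p = 0.114, 0.181 and 0.231). Of the 10 tested proteins of RNase P and ELAC2, which cut the 3′ end of MALAT1, none passed, with a median of -0.06. Among 18 partners of individual lncRNAs, 3 fell and 15 did not pass, with a median of -0.17, where 5.37% of all tested genes were called lower. With the recovered reads 2 of the 3 passed, and SOX4 did not. QKI, a splicing regulator that MIAT binds, fell from 6.55 ± 0.606 FPKM in NC to 2.44 ± 0.0618 FPKM in siPrp19 (SD, n = 3 each; log2 difference -1.13; limma, adjusted p = 0.00182). MYC fell by 0.44 (limma, adjusted p = 0.0141) and SOX4 by 0.31 (limma, adjusted p = 0.0458). KHDRBS1 (SAM68), a partner of NORAD, and SF1, a branch point protein that MIAT binds, differed by -0.26 (limma, adjusted p = 0.0721) and -0.22 (limma, adjusted p = 0.137). The Pumilio protein PUM2, bound by NORAD, differed by -0.12 (limma, adjusted p = 0.556). EZH2, the Polycomb methyltransferase that NBAT1 binds, differed by -0.19 (limma, adjusted p = 0.121). Without NCb and siPrp19b the difference of QKI was -1.10 (limma, adjusted p = 0.0819), and none of the 18 passed.

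The protein-coding neighbours of the 9 lncRNAs numbered 18, of which 9 were tested, 1 rose and 2 fell, where 7.94% of all tested genes passed in either direction. None of the 3 passed without NCb and siPrp19b, and SOX4 did not pass with the recovered reads (voom in limma, adjusted p = 0.111). The 2 that fell were MYC, 53.1 kb from PVT1, and SOX4, 66.2 kb from CASC15. Both were already counted among the partners above, so they are not a separate result. MYC was at 18.6, 18.6 and 20.01 FPKM in NC and at 13.6, 13.3 and 14.6 FPKM in siPrp19, whereas PVT1 itself showed no difference past its spread. CHP1, a calcium-binding protein gene 2.10 kb from OIP5-AS1 on the same strand, rose from 15.8 ± 0.811 FPKM to 21.2 ± 1.63 FPKM (SD, n = 3 each; limma, adjusted p = 0.0263), and its log2 difference was 0.41, or 0.40 without NCb and siPrp19b (limma, adjusted p = 0.299). OIP5, which overlaps OIP5-AS1, was at 5.37, 6.36 and 7.34 FPKM in NC and at 5.48, 5.44 and 6.01 FPKM in siPrp19 (limma, adjusted p = 0.491). FRMD8, 9.25 kb from NEAT1, differed by 0.22 and did not pass (limma, adjusted p = 0.371). KCNQ1 stayed at or below 0.137 FPKM, and PRL, within CASC15, was listed at 0.

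Seen among all lncRNAs, the list was not at the extremes. Of 1395 lncRNA genes tested, 17 rose and 30 fell in limma, 1.22% and 2.15%, with a median log2 fold change of 0.01. OIP5-AS1 ranked 86th of 1395 by the size of its fall and 19th by p, and MALAT1 ranked 184th and 96th. Without NCb and siPrp19b, and with the groups as recorded, no lncRNA gene was called by limma, with 160 and 58 at an unadjusted p under 0.05. Leaving out NCa, NCb, siPrp19b or siPrp19c alone left 10, 15, 11 and 9 lncRNA genes called. For all tested genes the split was 353 higher and 736 lower in limma, but 747 higher and 623 lower for the recovered reads and 501 higher and 586 lower under quantile normalization. For lncRNA genes the recovered reads likewise gave 33 higher and 18 lower, so the balance of rises and falls differed with the scaling. Here single-exon means that all annotated exons of a gene merge into 1 block, as for MALAT1, NEAT1 and NORAD. Only 1 of 17 MALAT1 transcripts and 1 of 8 NEAT1 transcripts has a single exon. Among single-exon lncRNA genes 2 rose and 12 fell of 453, and among those with several exons 15 rose and 18 fell of 942. This balance also turned with the scaling, since the recovered reads gave 8 higher and 4 lower single-exon genes and 25 higher and 14 lower with several exons.

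**Figure D4:**
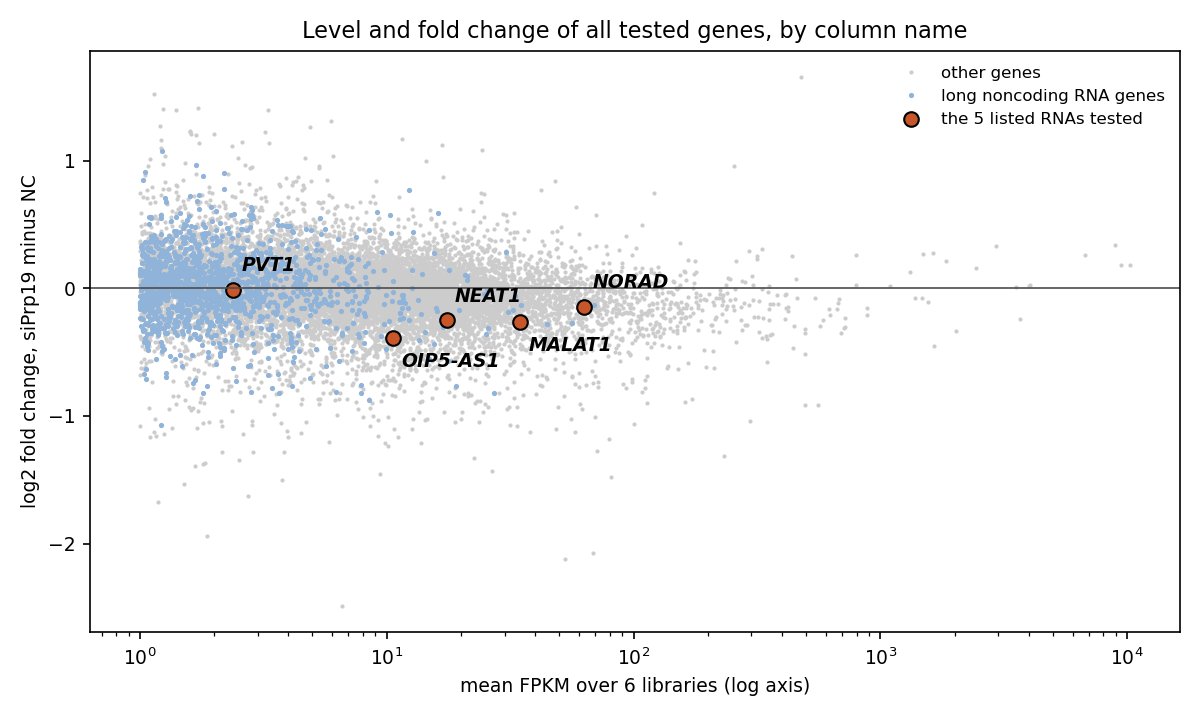
Mean FPKM over 6 libraries (log axis) against the log2 fold change by column name for the 13718 tested genes, with lncRNA genes in blue and the 5 listed lncRNAs as large points. All 5 lie below 0, OIP5-AS1 lowest at -0.39, though NORAD and PVT1 turn positive under other scalings.

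The largest falls among lncRNA genes past the threshold without overlap between groups were those of ENSG00000250659, ENSG00000250957 and MIR503HG, and the largest rises those of ENSG00000256955, ENSG00000260011 and ENSG00000261924. MIR503HG, the host gene of a microRNA cluster on the X chromosome, was at 10.99, 9.62 and 10.3 FPKM in NC and at 5.06, 6.54 and 4.71 FPKM in siPrp19 (log2 difference -0.82; limma, adjusted p = 0.0102), and without NCb and siPrp19b the difference was -0.99 (limma, adjusted p = 0.0819). ENSG00000250957, on chromosome 4, was at 11.3 ± 0.700 FPKM in NC and 5.70 ± 0.567 FPKM in siPrp19 (SD, n = 3 each). ENSG00000261924 was at 1.22 ± 0.252 FPKM in NC and 3.18 ± 0.717 FPKM in siPrp19 (SD, n = 3 each). ENSG00000260011 and ENSG00000256955 rested on as few as 4 and 2 reads in a library, and ENSG00000250659 on none in siPrp19a. Of 23 other much studied noncoding RNAs, the short RN7SK, RPPH1 and RMRP included, 22 matched an identifier. HOTAIR and HOTAIRM1 were among those listed at 0 in every library. Of the 23, 9 were tested and none passed in limma, with a median of 0.00. Among them TUG1 was at 22.04, 23.2 and 15.2 FPKM in NC and at 24.1, 20.7 and 19.7 FPKM in siPrp19, with the lowest value in NCc. DANCR differed by 0.00, EPB41L4A-AS1 by 0.00 and LINC01578 by -0.25 (limma, adjusted p = 0.0815).

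Across the 6 libraries, MALAT1 went most closely with OIP5-AS1 (Pearson r = 0.87) and NORAD (r = 0.82), and NORAD least with PVT1 (r = -0.23). These values are descriptions over 6 libraries that share the grouping, the scaling and the close pairs named above. The genes of most similar pattern, by Pearson r on log2(FPKM + 1) over the 6 libraries, were ENSG00000278730 (0.996), EHMT1 (0.995) and ZFAND1 (0.993) for MALAT1. For NEAT1 they were PHLDB1 (0.987), ACIN1 (0.984) and the mitochondrial tRNA gene MT-TV (0.983), and for NORAD WWC3 (0.998), CENPJ (0.994) and KLHL28 (0.991). These genes were picked as the highest r among all tested genes over 6 libraries, so high values come with the selection. MT-TV ran from 0 FPKM in siPrp19a to 7.86 FPKM in NCb. The genes like NORAD shared its high NCa and NCb and its low NCc: CENPJ was at 6.23, 6.48 and 4.69 FPKM in NC and at 5.86, 4.39 and 4.75 FPKM in siPrp19.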

How the data were processed

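The authors deposited 1 table of FPKM per library for 58735 Ensembl genes. Per the submitters' processing notes, HISAT2 2.0.5, featureCounts 1.5.0-p3 and hg38 were used; whether strand was used in counting is not given in the sources used here. Libraries were made from total RNA with the NEBNext Ultra RNA kit. Per the methods of the study, the biological replicates were made 3 times, but the labels give only replicate numbers, so p-values measure the spread between these libraries, which may be partly technical.

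All identifiers matched GENCODE 29 (GRCh38). FPKM times merged exon length gave whole reads (within 0.05) for 100% of values above 0. The reads over the implied library size were 1.01, 1.01 and 1.04 in NCa, NCb and NCc. They were 0.989, 0.961 and 0.951 in siPrp19a, siPrp19b and siPrp19c. The deposited FPKM thus carry a between-library scaling that differs by group. It sets siPrp19 lower against NC than the recovered reads do. Each value column was assigned to the sample whose description is its name, as asked for this list of genes. Genes averaging 1 FPKM or more were tested with limma 3.58.1 in R 4.3.3 (trend, log2(FPKM + 1), Benjamini-Hochberg over 13718 genes, threshold 0.05). Fold changes on this scale understate those of low genes. Named genes were the 9 lncRNAs, PRPF19, list members past the threshold with up to 4 others of high mean, protein-coding neighbours, the 3 genes most like MALAT1, NEAT1 and NORAD, and the 3 largest rises and falls of lncRNA genes. SON, PUM2, MEST and the 3 RNAs listed at 0 fell outside this rule and were chosen after their values were seen. Some members of the lists and some neighbours are not reported here. The list of genes, the gene lists and the tests were chosen with earlier results of these data known. In simulated libraries with 200 genes changed 2-fold, 165 were recovered with 16 false calls over 13718 genes (6 libraries). These were drawn independently at a dispersion of 0.01, without close pairs, and smaller folds were not simulated. The simulation therefore does not give the error rate of the calls in the real libraries. Libraries with the same replicate number by column name deviated together with r = 0.13, -0.05 and 0.20, so the numbers were not taken to pair them. Alternatives were other pseudocounts, filters and scalings, voom on recovered reads, a replicate block, 4 libraries, groups as recorded, and leaving out each library. Python 3.11.15, pandas 2.3.3, numpy 2.4.6, scipy 1.17.1 and matplotlib 3.10.9 were used.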

Additional observations from a re-analysis of the deposited data

How the results depend on the processing

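Of 144 values under other settings, 100 stayed on the same side of 0 and of the threshold (counts, within 1.5 times). Of the 5 tested lncRNAs, the number called was 1, and 0 after rescaling to the same sum, without NCb and siPrp19b (by limma and by voom on recovered reads, the latter added after the data were seen) and as recorded. The count over all genes was 1089, 512 with no filter (34468 tested), 679 rescaled to the same sum, 2 without NCb and siPrp19b, 266 by voom without them and 0 as recorded. For lncRNA genes it was 47, and 21, 28, 0, 11 and 0 under those settings. Leaving out each library gave 0 to 1 of the 5 called, 253 to 1354 genes and 9 to 61 lncRNA genes. The count over all genes was lowest without siPrp19c (253), NCa (264), siPrp19b (270) and NCb (335), and for lncRNA genes without the same 4. These 4 are the libraries of the close pairs. The log2 difference of OIP5-AS1 was -0.35 rescaled, -0.37 without NCb and siPrp19b, -0.33 by voom without them and -0.11 as recorded, and ranged from -0.43 to -0.36 when each library was left out. MALAT1 reversed to 0.0211 as recorded. NORAD reversed to 0.0105 under quantile normalization, 0.0819 as recorded and 0.0322 by voom without NCb and siPrp19b. PVT1 reversed to 0.0182 rescaled, 0.00212 as recorded, 0.0668 by voom and 0.0783 by voom without NCb and siPrp19b, and ranged from -0.0771 to 0.0363 when each library was left out. The cause of these changes was not tested. With the replicate number by column name as a block, OIP5-AS1 stayed at -0.39 (limma, adjusted p = 0.0338), 928 genes were called, and no call among the 5 lncRNAs changed. With 3 libraries a group, the depth of NBAT1, CASC15 and MIAT (at most 111 reads a library) limits what could be seen.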
